A study of Mus musculus with 16 samples.

Results

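The 35 genes described here encode the folding machinery of the endoplasmic reticulum (ER) and the branches of the unfolded protein response, the signalling system that adjusts that machinery to the load of secreted protein. They were chosen by name: the rows of the deposited count table whose gene symbol is one of 35 fixed names, out of 52636 genes in all. All 35 passed the filter on low counts, as did 17125 genes of the whole table. The genes fall by role into 11 folding chaperones and co-chaperones, 5 disulphide and prolyl isomerases, 3 genes of the IRE1-XBP1 and ATF6 branches (Ern1, Xbp1 and Atf6), 6 genes of ER-associated degradation, 6 genes of the PERK-ATF4 branch and 4 subunits of the translocation machinery.

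RNA was sequenced from crushed whole descending thoracic aorta of mice of 2 inbred strains, C57BL/6J and 129S6/SvEvTac, either control or with hypertension induced by AngII (angiotensin II, the effector peptide of the renin system, a potent vasoconstrictor). There were 4 libraries in every one of the 4 groups, and no genetic alteration is named for any group. The sources used here do not give the age and sex of the animals, the AngII dose and duration, or what the controls received. Whether each library is a different animal is not stated in the labels, and a p-value here measures the scatter among libraries, part of which may be technical. Totals ran from 42116120 to 61381134 counts in 15 libraries, and 129S6/SvEvTac AngII replicate 5 had 121573945. The tissue label was checked against 8 smooth muscle markers, which summed to 38400 to 42300 CPM (counts scaled to the same adjusted total in each library) in the 8 control libraries.

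The ER is where secreted and membrane proteins enter the secretory pathway, are folded, receive disulphide bonds and sugars, and are inspected before export. When unfolded protein accumulates, 3 sensors in the ER membrane respond: IRE1 splices the mRNA of the factor XBP1, ATF6 is cut to release a transcription factor, and PERK phosphorylates a translation initiation factor, which favours translation of ATF4. XBP1 and ATF6 are known to drive genes of chaperones and of degradation, whereas ATF4 drives genes of amino acid supply and, under strong stress, of cell death. In the vessel wall, collagen-secreting fibroblasts and synthetic smooth muscle cells are cells with a heavy secretory load. Splicing, cleavage, phosphorylation and translation are not read by gene counts, so what follows concerns transcript abundance alone.

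The promoters carry the sequence elements that these factors are known to bind, so they were read before the values. RefSeq promoters on GRCm38.p6, each spanning 250 bases before to 50 bases after the annotated start, were found for 30 of the 35 genes, and those of Derl1, Atf6, Manf, Hyou1 and Sec61a1 were not in the table used. The ER stress response element (ERSE) was searched on both strands as CCAAT, any 9 bases, then CCACG. It occurred in 9 of the 30 promoters (30.0%), against 39 of the 32851 promoters in the RefSeq table (0.119%). The 9 genes were Hspa5, Hsp90b1, Calr, Canx, Dnajc3, Creld2, Pdia6, Syvn1 and Derl3. A related element, ERSE-II, searched on both strands as ATTGG, any 1 base, then CCACG, was found in Dnajb11 and Herpud1 and in 0.0365% of all promoters. The XBP1 element TGACGTGG was in none of the 30, beside 0.676% of all promoters. Its last 5 bases are CCACG read on the opposite strand, so the 3 elements can overlap. These genes were placed on the list as classical targets, so the shares describe the list and test nothing. A match shows that the letters are present, not that a factor was bound.

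Hspa5, Hsp90b1, Pdia6 and Dnajc3 are printed as examples of the genes with an ERSE. Capitals mark the ERSE, in either orientation, and all other bases are in lower case. Each run reads 5′ to 3′ on the strand of its gene, and the reference genome is that of C57BL/6J, so that 129S6/SvEvTac promoters were not analysed here.
Hspa5, chr2:34771840-34772139, plus strand: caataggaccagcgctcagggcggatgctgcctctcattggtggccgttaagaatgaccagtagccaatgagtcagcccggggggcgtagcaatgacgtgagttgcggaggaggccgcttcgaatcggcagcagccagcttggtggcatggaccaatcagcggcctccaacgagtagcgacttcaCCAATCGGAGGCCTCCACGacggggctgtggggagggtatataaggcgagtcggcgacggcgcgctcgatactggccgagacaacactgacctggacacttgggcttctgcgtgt
Hsp90b1, chr10:86705395-86705694, minus strand: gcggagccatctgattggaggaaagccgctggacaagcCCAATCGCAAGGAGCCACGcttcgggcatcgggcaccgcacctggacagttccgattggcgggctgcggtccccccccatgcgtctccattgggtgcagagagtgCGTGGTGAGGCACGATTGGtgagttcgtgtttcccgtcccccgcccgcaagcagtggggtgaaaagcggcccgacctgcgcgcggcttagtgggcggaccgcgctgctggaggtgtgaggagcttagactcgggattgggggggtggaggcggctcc
Pdia6, chr12:17266339-17266638, plus strand: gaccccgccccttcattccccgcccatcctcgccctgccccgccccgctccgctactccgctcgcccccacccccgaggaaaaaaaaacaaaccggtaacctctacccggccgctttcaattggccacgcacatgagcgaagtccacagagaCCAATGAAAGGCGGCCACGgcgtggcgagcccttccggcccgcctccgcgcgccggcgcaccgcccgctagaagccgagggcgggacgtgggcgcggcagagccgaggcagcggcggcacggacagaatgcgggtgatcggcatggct
Dnajc3, chr14:118937682-118937981, plus strand: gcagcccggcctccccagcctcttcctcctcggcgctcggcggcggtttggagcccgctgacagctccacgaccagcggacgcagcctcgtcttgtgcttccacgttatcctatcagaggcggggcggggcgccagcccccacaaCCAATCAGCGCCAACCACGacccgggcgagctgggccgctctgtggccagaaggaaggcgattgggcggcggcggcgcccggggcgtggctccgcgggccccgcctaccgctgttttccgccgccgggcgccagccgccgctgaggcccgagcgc
In Hspa5 the element lay 65 to 47 bases before the start. Hsp90b1 held 2 copies, at 212 to 194 and, on the opposite strand, at 107 to 89 bases before the start.

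The amino acid response element (CARE), at which ATF4 acts with a partner, was searched as TGATGNAA on both strands. It was present in 4 of the 30 promoters (13.3%), those of Asns, Chac1, Herpud1 and Trib3, against 3.97% of all promoters. Asns, Chac1 and Trib3 are shown because they differed most from one another in the counts, with the element in capitals.
Asns, chr6:7693160-7693459, minus strand: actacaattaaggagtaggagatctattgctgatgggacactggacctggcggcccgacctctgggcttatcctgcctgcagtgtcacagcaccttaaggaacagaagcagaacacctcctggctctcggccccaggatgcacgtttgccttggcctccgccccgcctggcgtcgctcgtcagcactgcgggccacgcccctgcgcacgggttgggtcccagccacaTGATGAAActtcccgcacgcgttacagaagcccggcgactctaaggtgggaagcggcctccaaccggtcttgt
Chac1, chr2:119350992-119351291, plus strand: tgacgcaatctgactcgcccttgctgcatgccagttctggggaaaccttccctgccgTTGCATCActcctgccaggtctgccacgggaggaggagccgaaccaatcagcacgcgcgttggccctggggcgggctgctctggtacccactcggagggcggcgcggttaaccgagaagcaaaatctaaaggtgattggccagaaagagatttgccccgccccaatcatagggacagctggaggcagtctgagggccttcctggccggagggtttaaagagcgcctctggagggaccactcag
Trib3, chr2:152344011-152344310, minus strand: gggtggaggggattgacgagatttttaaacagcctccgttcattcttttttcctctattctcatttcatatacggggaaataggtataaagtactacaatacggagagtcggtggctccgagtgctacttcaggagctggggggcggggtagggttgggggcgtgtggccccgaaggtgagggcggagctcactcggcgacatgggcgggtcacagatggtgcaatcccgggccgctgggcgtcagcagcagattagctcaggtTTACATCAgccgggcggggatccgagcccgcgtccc
The Asns match lay 23 to 16 bases before the start on the gene's own strand, and the Chac1 match lay 193 to 186 bases before it on the opposite strand. In Trib3 the match fell 15 to 22 bases after the start, also on the opposite strand.

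**Figure D1:**
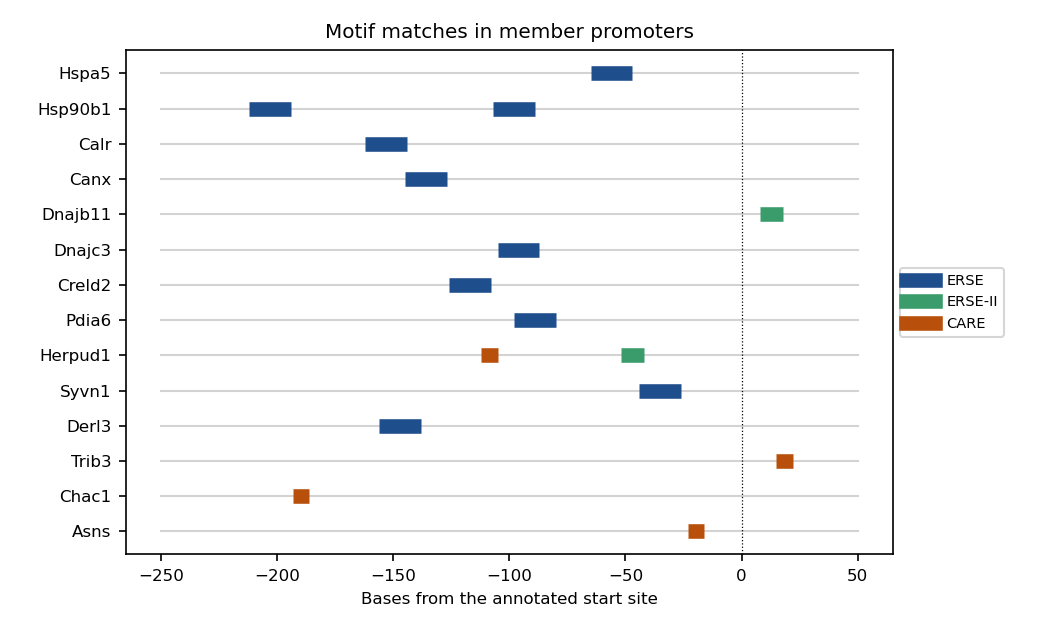
Positions of ERSE (blue), ERSE-II (green) and CARE (orange) matches in the promoters of the 14 genes that held one, in bases from the annotated start site (dotted line); grey lines span the 250 bases before to 50 bases after it. The Hsp90b1 line carries 2 ERSE matches and the Herpud1 line carries both an ERSE-II and a CARE.

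AngII in C57BL/6J was compared first. Of the 35 genes, 23 rose and 1 fell in edgeR's quasi-likelihood test at a Benjamini-Hochberg adjusted p below 0.05, where 21.8% of all tested genes rose and 17.1% fell. The median log2 fold change was 0.62 over the 35 genes and 0.0092 over all tested genes. All 5 isomerases, all 4 translocation subunits and 9 of 11 chaperones rose, compared with 1 of 6 degradation genes and 0 of the 3 IRE1-XBP1 and ATF6 genes. The PERK-ATF4 branch was mixed, with 4 genes higher, the sensor gene Eif2ak3 among them, and Trib3 lower.

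In 129S6/SvEvTac, 14 of the 35 rose and 0 fell, where 7.71% of all tested genes rose and 4.47% fell. The median log2 fold change was 0.36 against 0.0027 over all tested genes. Fewer were called without AngII replicate 1 (9 genes) or 4 (7), or without control replicate 2, 3 or 4 (8 each). Scaling by library size alone, which put the median of all genes at -0.157, also left 7 calls, and the share of higher calls among all genes was 25.2% in place of 63.3%. Here 7 of 11 chaperones, 3 of 5 isomerases, Atf6 among the 3 IRE1-XBP1 and ATF6 genes, 1 of 6 degradation genes, 2 of 6 genes of the PERK-ATF4 branch and 0 of 4 translocation subunits rose. By call, 12 genes rose in both strains (5.35% of all tested genes did): Hsp90b1, Canx, Dnajb11, Dnajc3, Sdf2l1, Manf, Pdia3, Pdia4, Pdia6, Edem1, Eif2ak3 and Chac1. No call was made in either strain for Creld2, Ern1, Xbp1, Herpud1, Sel1l, Syvn1, Derl1, Derl3 and Ddit3.

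The difference of the AngII effects was tested as an interaction. It was called larger in C57BL/6J for 3 genes, Pdia3, Ssr3 and Asns, where 5.34% of all tested genes were, and smaller for Trib3, where 4.62% were. The estimate was larger in C57BL/6J for 28 of 35 genes, with a median difference of 0.26 on the log2 scale. Over all 17125 tested genes it was larger for 8787, with a median of 0.0168. A call in one strain alone therefore does not show that the strains differed. Leaving out 1 library at a time, the calls of Asns and Ssr3 were made in all 16 omissions, while that of Pdia3 was made only without C57BL/6J AngII replicate 3 or 5 or 129S6/SvEvTac control replicate 3. The call of Trib3 was lost without C57BL/6J AngII replicate 1 or 5, C57BL/6J control 1 or 2, 129S6/SvEvTac AngII 2 or 5, or 129S6/SvEvTac control 1, 2 or 3. Without C57BL/6J AngII replicate 3, 10 of the 35 genes were called, and the calls over all tested genes went from 1706 to 2990.

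Together the 35 genes took 0.593 to 0.644% of the counts in C57BL/6J controls and 0.798 to 1.07% with AngII. In 129S6/SvEvTac the share was 0.544 to 0.619% in controls and 0.598 to 0.734% with AngII. The groups did not overlap in C57BL/6J and did in 129S6/SvEvTac. In whole tissue, fewer cells of a type and less RNA per cell cannot be told apart, and several marker lists moved with these groups. The summed CPM of 8 fibroblast markers went from 8220 to 9920 in C57BL/6J controls to 38100 to 56300 with AngII, and from 6510 to 10700 to 17700 to 31200 in 129S6/SvEvTac. That list holds collagen genes, Col1a1 among them, so the sums also carry collagen expression. By call, 6 of the 8 fibroblast markers rose in C57BL/6J and 4 in 129S6/SvEvTac, with median log2 fold changes of 1.65 and 0.66. For 8 macrophage markers the sums were 226 to 262 and 519 to 1130 in C57BL/6J, and 132 to 250 and 173 to 278 in 129S6/SvEvTac. The 8 cell cycle markers summed to 15.7 to 18.9 and 135 to 476 in C57BL/6J, and to 13 to 17.7 and 43.6 to 108 in 129S6/SvEvTac. Smooth muscle markers summed to 12600 to 29700 CPM in C57BL/6J with AngII and to 36700 to 46100 in 129S6/SvEvTac with AngII. Of 8 adipocyte markers 7 rose in C57BL/6J and 0 in 129S6/SvEvTac, with sums of 89.1 to 248 and 140 to 3070 CPM in C57BL/6J and of 115 to 532 and 246 to 1100 CPM in 129S6/SvEvTac. Of 10 plasma cell markers 8 were tested, and 3 rose in C57BL/6J (Sdc1, Prdm1 and Irf4) and 0 in 129S6/SvEvTac. Ighm, Igkc and Jchain, also tested on that list, were not called for AngII in either strain. The estimate was above 0 for 6 of the 8 in C57BL/6J and for 4 in 129S6/SvEvTac. Sums of the 10 plasma cell markers were 197 to 461 and 276 to 778 CPM in C57BL/6J and 191 to 564 and 263 to 641 CPM in 129S6/SvEvTac, control first. The part of these cells in the results was not tested. With the cell cycle score as a covariate, which did not overlap between AngII and control libraries, 0 of the 35 genes were called for AngII in either strain. Of all 17125 tested genes that fit called 0 in C57BL/6J and 25 in 129S6/SvEvTac, so the loss of calls is not particular to the 35. 

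**Figure D2:**
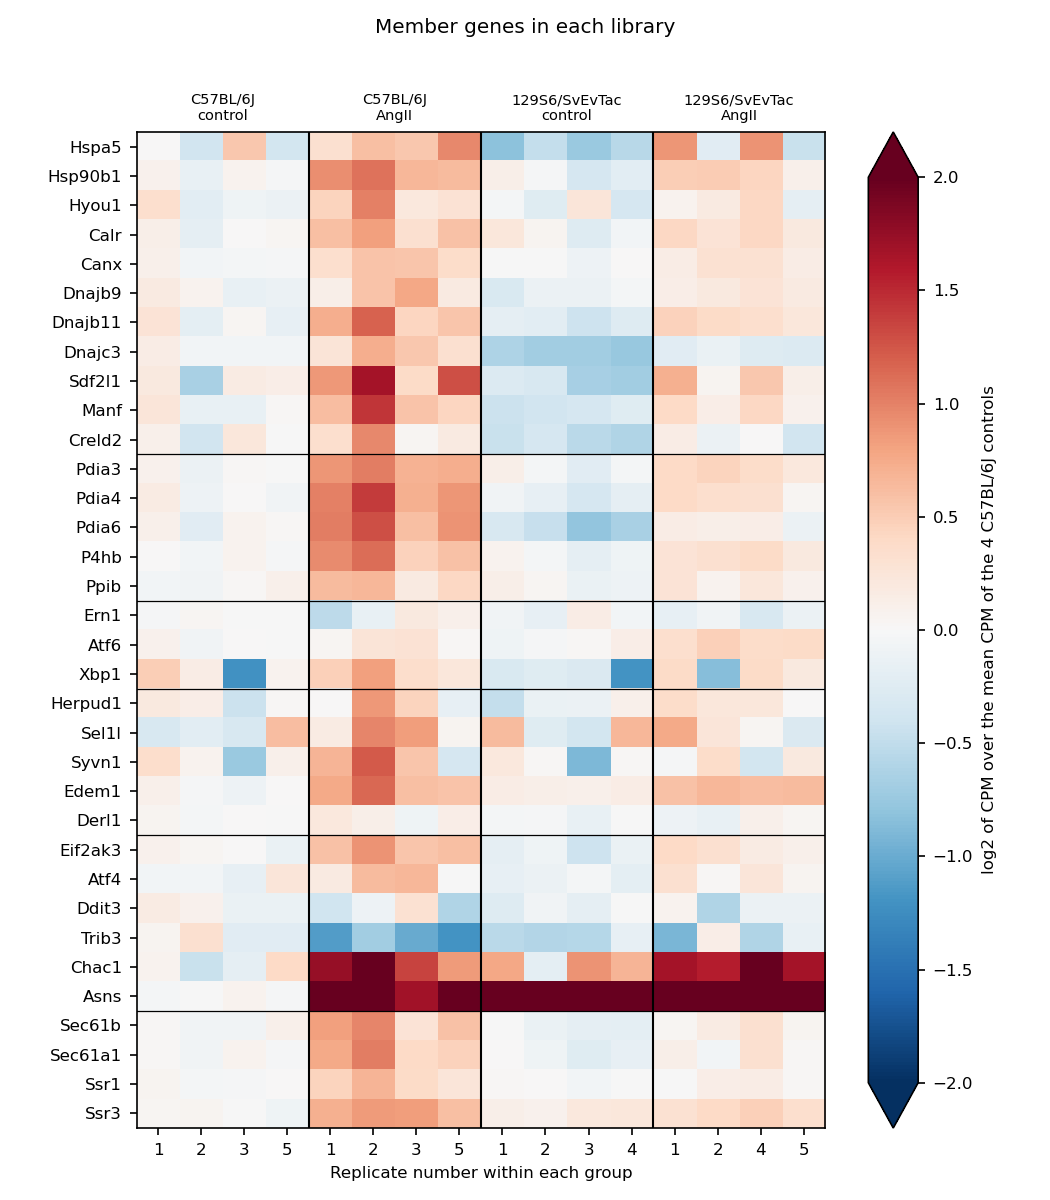
Each cell shows the log2 ratio of a gene's CPM in 1 library to its mean CPM in the 4 C57BL/6J controls, on a colour scale that stops at 2 either way; columns are the 16 libraries by group and replicate number, and horizontal lines separate the roles. Derl3, with 0 counts in 2 libraries, is left out. The isomerase and translocation blocks are redder in the C57BL/6J AngII columns than elsewhere, Asns is above the C57BL/6J control mean in all 12 other libraries, and Xbp1, Sel1l and Syvn1 vary within groups.

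Folding chaperones bind unfolded chains and hold them until they fold. Per kilobase of exon in C57BL/6J controls, Calr was the most abundant of the 35 genes at 265 CPM per kilobase, followed by P4hb at 243, Pdia3 at 155, Hsp90b1 at 131 and Hspa5 at 89.9, and Derl3 was the lowest at 0.126.

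Hspa5 encodes BiP, the main ER Hsp70 chaperone and the protein that keeps the sensors inactive. Its gene lies on GRCm38 chromosome 2, 34771970 to 34777547. The 4 C57BL/6J controls measured 383, 291, 551 and 296 CPM, and the 4 AngII libraries 475, 577, 551 and 739 CPM. The groups overlapped because control replicate 3 lay within the AngII range. The log2 fold change of 0.62 ± 0.28 (SE, adjusted p = 0.0961) was not called, and without that control it was (adjusted p = 0.0355). In 129S6/SvEvTac the controls measured 215, 273, 227 and 258 CPM, and AngII replicates 1, 2, 4 and 5 measured 698, 326, 706 and 278 CPM. Replicates 1 and 4 were thus well above replicates 2 and 5, which lay just above the controls. No annotated exon of another gene overlaps Hspa5, but whether the quantification split its reads differently between libraries was not tested. The mean was 243 ± 27.1 CPM in controls and 502 ± 232 CPM with AngII (SD, n = 4), and the rise of 1.05 ± 0.29 on the log2 scale was called (adjusted p = 0.0265). That call was lost without AngII replicate 1 or 4 or any 1 of the 4 controls, with adjusted p up to 0.0993. The difference between the strains' effects, -0.42 ± 0.40 on the log2 scale, was not called (adjusted p = 0.562).

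Hsp90b1 encodes GRP94, the ER Hsp90, which folds integrins and other receptors (chromosome 10, 86690209 to 86705509). In C57BL/6J it measured 563, 480, 556 and 518 CPM in controls and 1011, 1119, 835 and 825 CPM with AngII, with no overlap. It rose 1.79-fold, a log2 fold change of 0.84 ± 0.13 (adjusted p = 0.000118). The 129S6/SvEvTac values were 574, 523, 419 and 458 CPM in controls and 747, 753, 713 and 568 CPM with AngII, where AngII replicate 5 fell inside the control range. The rise there was 0.49 ± 0.13 (adjusted p = 0.0192), a call lost without AngII replicate 1, 2 or 4 or control replicate 3 or 4.

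The lectin chaperones Calr (calreticulin) and Canx (calnexin) bind glycoproteins by their trimmed sugars. Calr rose from 764 ± 64.2 to 1148 ± 161 CPM in C57BL/6J (SD, n = 4), with no overlap between the groups. In 129S6/SvEvTac Calr measured 764 ± 106 CPM in controls and 958 ± 69.8 CPM with AngII, and the log2 difference of 0.33 ± 0.12 was not called (adjusted p = 0.0852). Canx rose in both strains, by 0.46 ± 0.08 in C57BL/6J (adjusted p = 0.000208) and by 0.26 ± 0.08 in 129S6/SvEvTac (adjusted p = 0.0346). The second of these calls was lost without any 129S6/SvEvTac library but AngII replicate 1, and without C57BL/6J AngII replicate 5 or control replicate 1 or 3.

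Among the J-domain co-chaperones, which hand clients to BiP, Dnajc3 (p58IPK, also an inhibitor of PERK; chromosome 14, 118937976 to 118981697) had the clearest pattern. Its C57BL/6J controls measured 205, 179, 179 and 180 CPM and its AngII libraries 223, 307, 269 and 232 CPM. Its 129S6/SvEvTac controls measured 121, 115, 115 and 110 CPM and the AngII libraries 160, 169, 155 and 155 CPM. None of the 4 groups overlapped, and each 129S6/SvEvTac group lay below both C57BL/6J groups. The AngII log2 fold change was 0.47 ± 0.09 in both strains (adjusted p = 0.000889 and 0.00416), with a difference of 0.0019 ± 0.13 between them (adjusted p = 0.999). Dnajb11 rose from 69.2 ± 10.9 to 117 ± 28.1 CPM in C57BL/6J and from 57.8 ± 4.06 to 88.3 ± 5.69 CPM in 129S6/SvEvTac (SD, n = 4). Dnajb9 (ERdj4), a textbook XBP1 target, rose by 0.44 ± 0.13 on the log2 scale in C57BL/6J (adjusted p = 0.013). Its value in 129S6/SvEvTac was 0.33 ± 0.13 (adjusted p = 0.105).

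Sdf2l1, which works with Dnajb11 to keep clients soluble, was low in abundance. It measured 11.8, 6.56, 11.5 and 11.3 CPM in C57BL/6J controls and 18.8, 32.6, 13.4 and 25.1 CPM with AngII. The groups did not overlap, and the mean rose 2.18-fold (log2 1.12 ± 0.25, adjusted p = 0.00267). The 129S6/SvEvTac libraries showed a 1.81-fold rise (adjusted p = 0.0405), a call lost without any library of that strain but AngII replicate 2, and without C57BL/6J AngII replicate 5 or control replicate 1, 3 or 5. Manf, a secreted ER stress protein, rose by 0.82 ± 0.18 in C57BL/6J (adjusted p = 0.00202), where AngII replicate 2 stood at 198 CPM and the other AngII libraries at 98.4 to 112 CPM. In 129S6/SvEvTac Manf rose by 0.61 ± 0.18 (adjusted p = 0.036), a call lost without any 1 of that strain's 8 libraries or C57BL/6J control replicate 3. Hyou1 (GRP170), a nucleotide exchange factor of BiP, rose by 0.52 ± 0.19 in C57BL/6J (adjusted p = 0.0371), a call lost without AngII replicate 2 or control replicate 2, 3 or 5. Creld2, an ER disulphide protein, was not called in either strain (0.42 ± 0.18 and 0.40 ± 0.18, adjusted p = 0.0752 and 0.175), though without C57BL/6J AngII replicate 3 it was in C57BL/6J (adjusted p = 0.0252).

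Disulphide isomerases make and reshuffle the bonds that hold secreted proteins together, and P4hb is also the beta subunit of the prolyl hydroxylase that matures collagen. Pdia4 (ERp72) measured 144, 120, 130 and 123 CPM in C57BL/6J controls and 259, 341, 212 and 237 CPM with AngII, so every AngII library exceeded every control. It rose 2.03-fold (adjusted p = 2.5e-05). Controls of 129S6/SvEvTac measured 124, 115, 103 and 114 CPM and AngII libraries 170, 163, 162 and 132 CPM, again with no overlap, a rise of 1.38-fold (adjusted p = 0.0269). The second call was lost without AngII replicate 1, 2 or 4 or control replicate 2, 3 or 4. The difference between the strains' effects was 0.56 ± 0.18 and was not called (adjusted p = 0.0616), though without C57BL/6J AngII replicate 3 it was (adjusted p = 0.0112).

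Pdia3 (ERp57), the isomerase that partners calnexin and calreticulin, rose by 0.84 ± 0.09 in C57BL/6J (adjusted p = 1.02e-05) and by 0.40 ± 0.09 in 129S6/SvEvTac (adjusted p = 0.0116). It went from 487 ± 27.3 to 870 ± 93.1 CPM and from 474 ± 45.2 to 625 ± 44.5 CPM (SD, n = 4), and the difference of 0.44 ± 0.13 was just called (adjusted p = 0.0482); it was lost in 13 of 16 omissions, as given above. Pdia6 (P5), which attenuates the sensors by acting on their cysteines, rose 1.97-fold in C57BL/6J, from 157, 125, 153 and 147 to 296, 356, 220 and 272 CPM. The 129S6/SvEvTac rise was 1.53-fold, from 116, 105, 83.9 and 92.7 to 161, 158, 159 and 134 CPM. Neither strain showed an overlap (adjusted p = 5.74e-05 and 0.00819).

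P4hb rose from 695 ± 24.2 to 1211 ± 254 CPM in C57BL/6J (log2 0.80 ± 0.12, adjusted p = 1e-04). In 129S6/SvEvTac the groups did not overlap, at 670.3 ± 49.98 and 851 ± 47.8 CPM, and the test did not call it (adjusted p = 0.0735) except without C57BL/6J AngII replicate 2 or 3. Ppib (cyclophilin B), the prolyl isomerase that helps collagen fold, rose by 0.49 ± 0.10 in C57BL/6J (adjusted p = 0.0015) and was at 0.18 ± 0.10 in 129S6/SvEvTac (adjusted p = 0.291). Both are known to serve collagen assembly, and the type I collagen gene Col1a1 rose 7.87-fold in C57BL/6J and 3.66-fold in 129S6/SvEvTac. A link between Col1a1 and P4hb or Ppib was not tested.

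**Figure D3:**
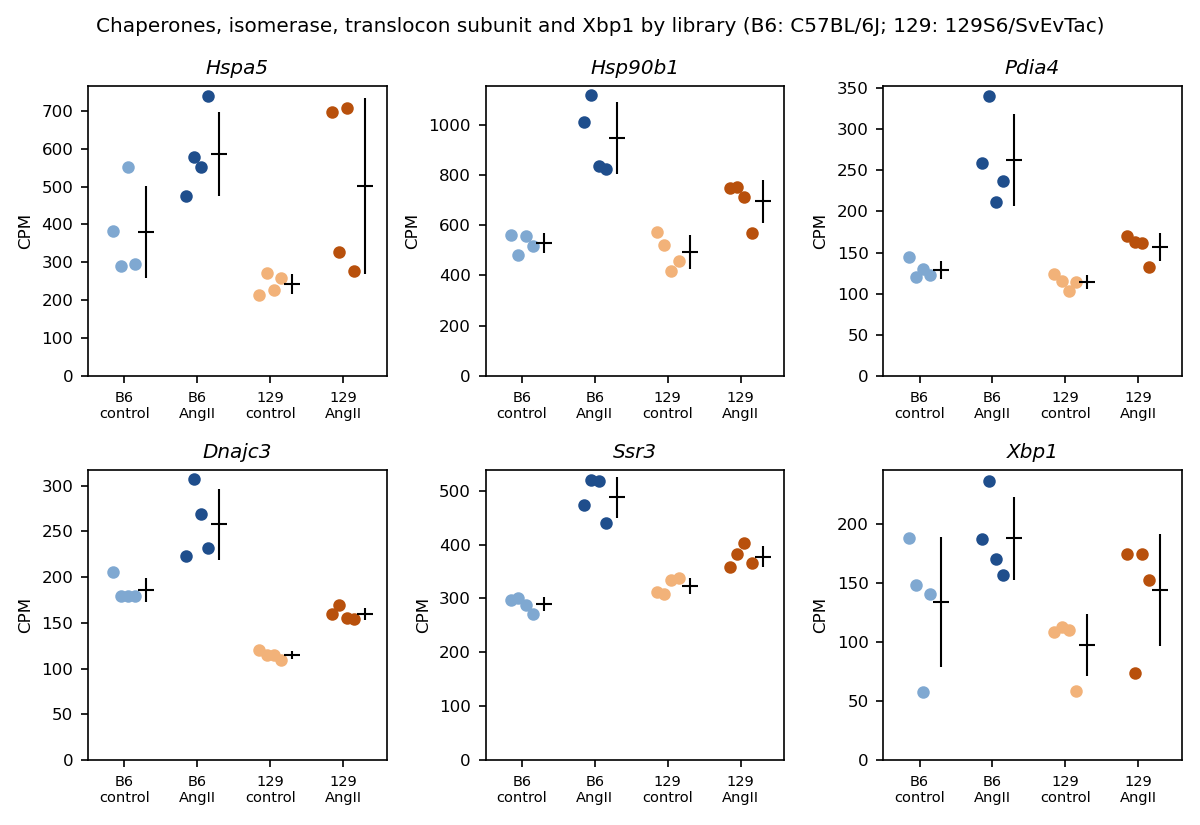
CPM of 6 genes in each library by group, on linear axes from 0; dots are libraries, and the black marks beside them are the mean ± SD of 4 libraries. Hspa5 splits into high and low libraries within 129S6/SvEvTac AngII (698 and 706 against 326 and 278 CPM), Dnajc3 is lower in 129S6/SvEvTac in both conditions, and 1 library in each of 3 groups is low for Xbp1.

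Among Ern1, Xbp1 and Atf6, the AngII test called Atf6 in 129S6/SvEvTac and made no other call; the third sensor gene, Eif2ak3, is given with the PERK-ATF4 branch. Ern1, which encodes IRE1 alpha, had 41.8 ± 0.78 CPM in C57BL/6J controls and 39.7 ± 8.33 CPM with AngII, and 40.9 ± 3.90 and 37.3 ± 2.80 CPM in 129S6/SvEvTac (SD, n = 4). It was not called in any of the 5 comparisons. Atf6 (chromosome 1, 170704674 to 170867771) measured 86.9, 90.8, 93.8 and 102 CPM in 129S6/SvEvTac controls and 117, 129, 119 and 121 CPM with AngII, without overlap. It rose 1.3-fold there (log2 0.38 ± 0.08, adjusted p = 0.00502), a call made in all 16 omissions. In C57BL/6J the value for Atf6 was 0.16 ± 0.08 (adjusted p = 0.115, or 0.0474 without AngII replicate 1), and the difference between the strains was not called (adjusted p = 0.217).

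Xbp1, whose unspliced and spliced forms the gene count does not separate, lies on chromosome 11, 5520659 to 5525893. It measured 188, 148, 57.5 and 140 CPM in C57BL/6J controls and 187, 236, 170 and 157 CPM with AngII. Controls of 129S6/SvEvTac measured 109, 112, 110 and 58.5 CPM and 174, 74, 174 and 152 CPM with AngII. In each of 3 groups 1 library lay far below the others: C57BL/6J control 3, 129S6/SvEvTac control 4 and 129S6/SvEvTac AngII 2. The table holds annotated genes only, and whether StringTie assigned part of the Xbp1 reads elsewhere in these libraries was not tested. The log2 fold changes of 0.49 ± 0.33 and 0.56 ± 0.33 were accordingly imprecise and not called (adjusted p = 0.253 and 0.306).

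ER-associated degradation extracts misfolded proteins to the cytosol for the proteasome. Edem1, a lectin-like factor that picks mannose-trimmed clients, was the 1 gene of the 6 to be called, and it was called in both strains. It measured 95.6, 87, 82.6 and 89.5 CPM in C57BL/6J controls and 150, 196, 135 and 132 CPM with AngII. The 129S6/SvEvTac values were 98, 96.3, 95.2 and 98.2 CPM in controls and 134, 141, 137 and 138 CPM with AngII. Every AngII library exceeded every control of its strain. The rises were 1.73-fold (adjusted p = 3e-05) and 1.42-fold (adjusted p = 0.00498), and both calls were made in all 16 omissions.

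Sel1l, the scaffold of the HRD1 ligase complex, had counts that spread within every group. For Sel1l and Syvn1, as for Xbp1, differences between libraries in how reads were assigned to genes were not tested. The C57BL/6J controls measured 89.6, 97, 90 and 171 CPM and the AngII libraries 125, 219, 200 and 116 CPM, while in 129S6/SvEvTac the ranges were 86.5 to 177 CPM and 91.1 to 189 CPM. Syvn1, the HRD1 ligase itself, likewise spread from 16.7 to 35.5 CPM and 22.2 to 65.1 CPM in C57BL/6J, and from 14.9 to 32.1 and 21.7 to 36.2 CPM in 129S6/SvEvTac. Neither passed the test, with standard errors of 0.31 for both genes in both strains, except that Syvn1 was called in C57BL/6J without AngII replicate 5 (adjusted p = 0.0316). Herpud1, an adaptor of that complex, was at 0.35 ± 0.20 in each strain (adjusted p = 0.181 and 0.286). Derl1, a channel component, averaged 135 and 145 CPM in C57BL/6J and 130.5 and 133 CPM in 129S6/SvEvTac, control first, and was not called in either. Derl3 reached at most 1.35 CPM and had 0 counts in 129S6/SvEvTac control replicates 2 and 3, which allows up to 0.0591 and 0.0682 CPM (3 counts, counting error only).

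**Figure D4:**
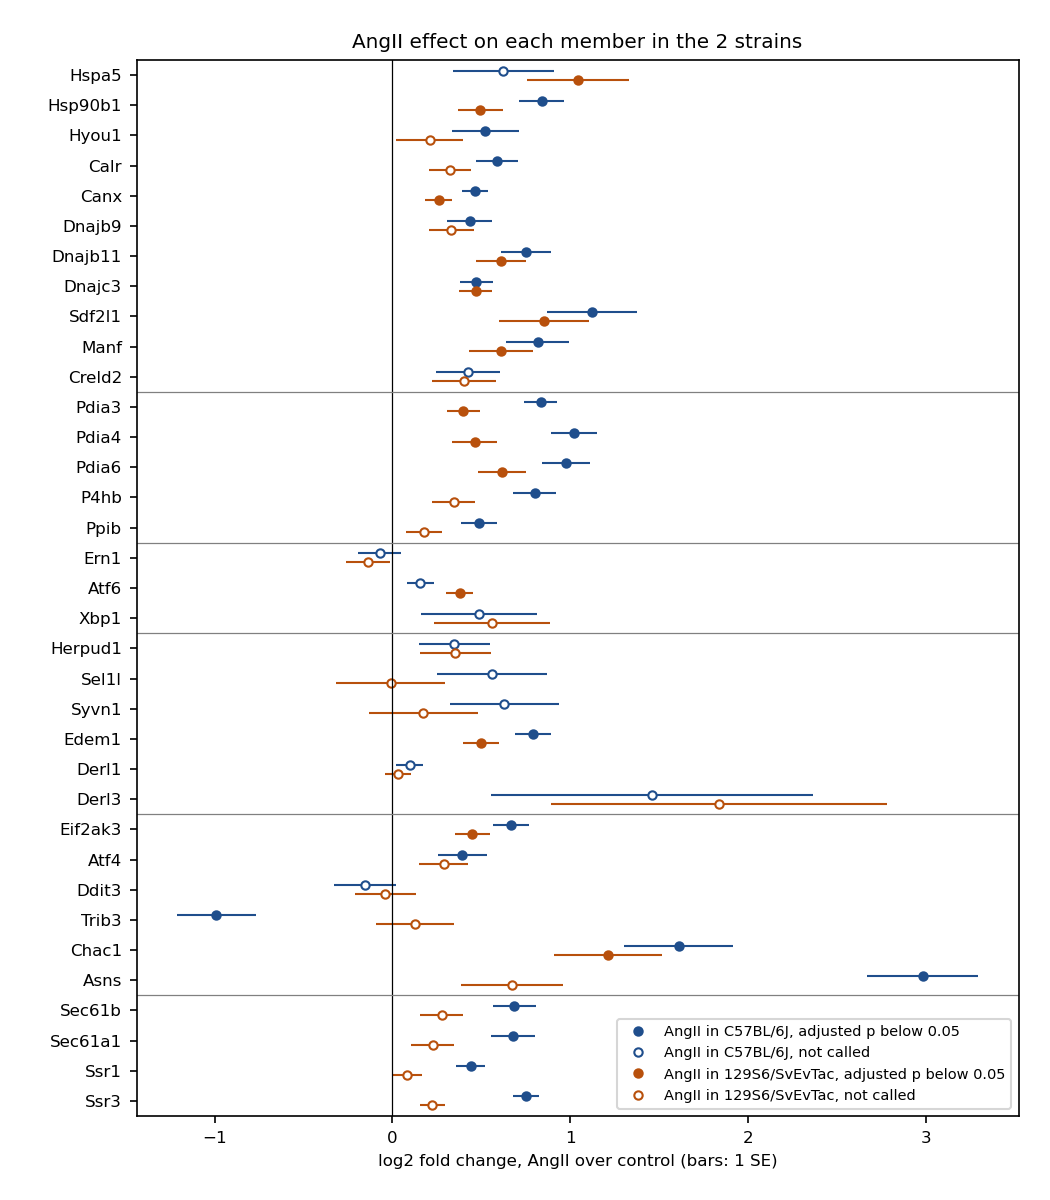
The log2 fold change of AngII over control for each gene in C57BL/6J (blue) and 129S6/SvEvTac (orange), with bars of 1 SE; filled points have an adjusted p below 0.05, open points do not, and lines separate the roles. Asns in C57BL/6J lies farthest to the right at 2.98, and Trib3 in C57BL/6J is the 1 filled point below 0.

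The PERK-ATF4 branch gave the widest range of values. Eif2ak3, which encodes PERK, rose 1.59-fold in C57BL/6J, from 32.1, 31.1, 30.4 and 27.7 to 45.7, 56.2, 44.7 and 46.0 CPM (adjusted p = 9.86e-05). The 129S6/SvEvTac rise was 1.37-fold, from 26.9, 28.7, 22.7 and 27.6 to 40.1, 38.0, 34.1 and 32.4 CPM (adjusted p = 0.00851). Neither pair of groups overlapped, and both calls were made in all 16 omissions. Atf4, the transcription factor controlled mainly at translation, rose 1.31-fold in C57BL/6J (adjusted p = 0.0325) although the groups overlapped. It was lost without AngII replicate 2 or 3 or control 1, 2 or 3 of C57BL/6J, or control 3 of 129S6/SvEvTac. Its value in 129S6/SvEvTac was 0.29 ± 0.14 (adjusted p = 0.199).

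Ddit3 encodes CHOP, the factor linked to cell death under prolonged ER stress. It measured 23.1, 21.9, 18.7 and 18.7 CPM in C57BL/6J controls and 15.6, 19.2, 25.5 and 13.6 CPM with AngII. In 129S6/SvEvTac it measured 17.2, 19.5, 18.2 and 20.5 CPM in controls and 21.6, 13.6, 19.1 and 19.0 CPM with AngII. All 4 groups overlapped, and the log2 fold changes were -0.16 ± 0.17 and -0.04 ± 0.17 (adjusted p = 0.511 and 0.929). Its exons overlap those of another gene model on the same strand and of genes on the opposite strand, so its count is uncertain.

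Trib3, a pseudokinase induced by ATF4 and CHOP that feeds back on ATF4, lies on chromosome 2, 152337422 to 152344032. It measured 5.25, 6.28, 4.31 and 4.3 CPM in C57BL/6J controls and 2.33, 3.1, 2.5 and 2.2 CPM with AngII, all below the controls. The fall was a log2 fold change of -0.99 ± 0.22 (adjusted p = 0.00247), a call made in all 16 omissions. In 129S6/SvEvTac it measured 3.46, 3.37, 3.4 and 4.48 CPM in controls and 2.68, 5.53, 3.32 and 4.53 CPM with AngII, so that the AngII libraries lay on both sides of the controls. The value there was 0.13 ± 0.22 (adjusted p = 0.778), and the difference between the strains was -1.12 ± 0.31 (adjusted p = 0.0346, lost in 9 of 16 omissions).

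Chac1, a glutathione-degrading enzyme downstream of ATF4, rose from 1.46, 1.01, 1.22 and 1.83 to 4.65, 6.26, 3.53 and 2.49 CPM in C57BL/6J. In 129S6/SvEvTac it rose from 2.35, 1.2, 2.57 and 2.22 to 4.38, 4.09, 6.48 and 4.38 CPM. The groups did not overlap in either strain, and the folds were 3.05 (adjusted p = 0.000767) and 2.31 (adjusted p = 0.017). The second call was lost without AngII replicate 4 or control replicate 2. Chac1 and Trib3 thus moved in opposite directions in C57BL/6J, although both promoters hold a CARE match.

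Asns encodes asparagine synthetase, which makes asparagine from aspartate and glutamine and is a standard readout of ATF4 (chromosome 6, 7675169 to 7693254). The 4 C57BL/6J controls measured 1.96, 1.98, 2.1 and 1.97 CPM, and the AngII libraries 23.5, 21.9, 6.44 and 11.7 CPM. In 129S6/SvEvTac the controls measured 14.9, 18.6, 13.5 and 13.6 CPM and the AngII libraries 23.9, 20.5, 28.8 and 23.6 CPM. The C57BL/6J controls were the low group, below all 12 other libraries, and with AngII the strains' ranges overlapped. In C57BL/6J the rise was 7.91-fold (log2 2.98 ± 0.31, adjusted p = 6.6e-06). For 129S6/SvEvTac the log2 fold change was 0.67 ± 0.29 (adjusted p = 0.148), although the groups did not overlap, and it was called without C57BL/6J AngII replicate 3 (adjusted p = 0.0236). The difference of 2.31 ± 0.41 was called (adjusted p = 0.00449), and so it was in each of the 16 omissions.

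**Figure D5:**
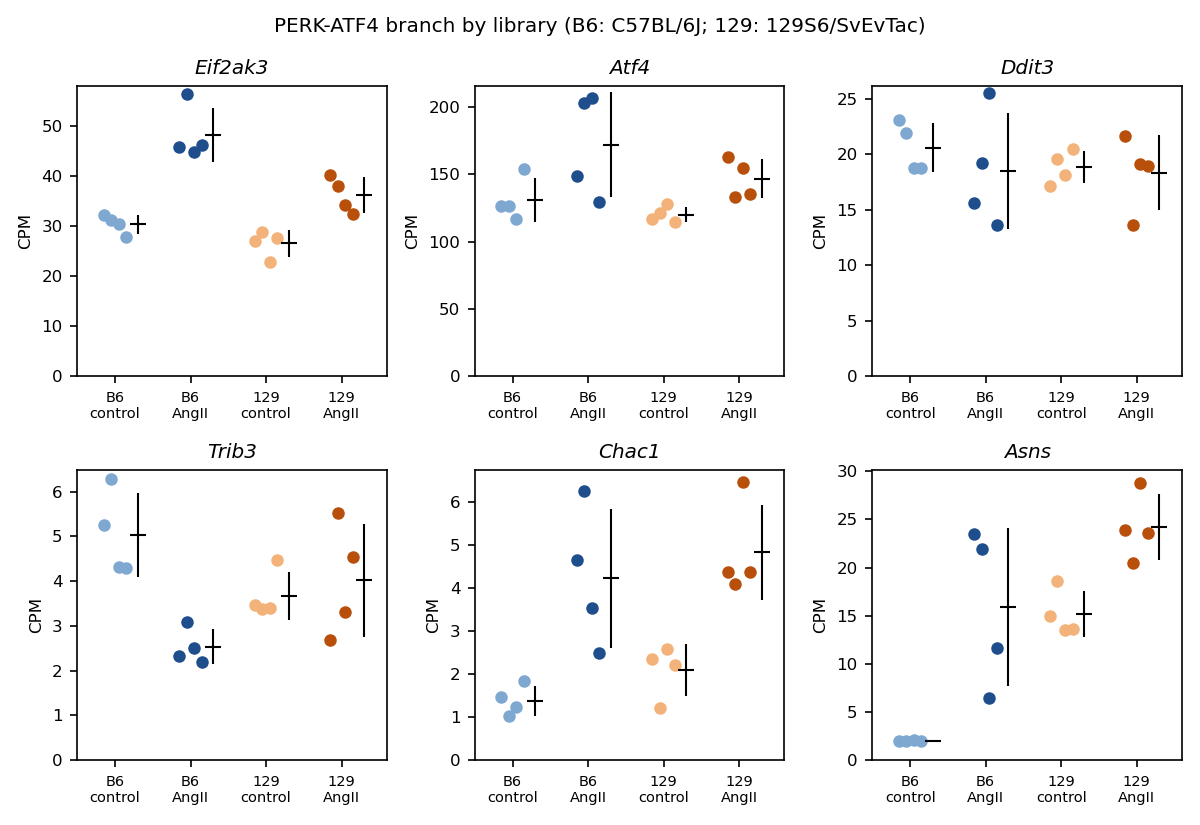
CPM of the 6 genes of the PERK-ATF4 branch in each library by group, on linear axes from 0; dots are libraries, and black marks are the mean ± SD of 4 libraries. Asns is near 2 CPM in the 4 C57BL/6J controls and 6.44 CPM or more in the other 12 libraries, Trib3 is lowest in C57BL/6J AngII, and Ddit3 overlaps in all groups.

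The translocation channel and its associated proteins feed new chains into the ER. Ssr3, the gamma subunit of the translocon-associated complex (chromosome 3, 65379655 to 65392623), measured 298, 300.2, 287 and 271 CPM in C57BL/6J controls and 473, 519, 518 and 440 CPM with AngII. The values in 129S6/SvEvTac were 312, 308, 333 and 338 CPM in controls and 359, 382, 403 and 367 CPM with AngII. Neither strain showed an overlap. It rose by 0.75 ± 0.07 in C57BL/6J (adjusted p = 3.07e-06) and was at 0.23 ± 0.07 in 129S6/SvEvTac (adjusted p = 0.0533, or 0.0479 without C57BL/6J AngII replicate 3). The difference of 0.53 ± 0.10 was called (adjusted p = 0.00643).

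Sec61a1 and Sec61b, subunits of the channel, rose 1.6-fold and 1.61-fold in C57BL/6J (adjusted p = 0.000479 and 0.000414), and Ssr1, the alpha subunit of the associated complex, 1.36-fold (adjusted p = 0.000599). In 129S6/SvEvTac their values were 0.23 ± 0.12, 0.28 ± 0.12 and 0.08 ± 0.08, and none was called (adjusted p = 0.265, 0.162 and 0.581). The differences between the strains, 0.45 ± 0.17, 0.41 ± 0.17 and 0.36 ± 0.12, were not called either (adjusted p = 0.111, 0.145 and 0.0625). Without C57BL/6J AngII replicate 3, all 3 differences were called (adjusted p up to 0.0237), that of Ssr1 also without replicate 5. Replicate 3 had the most smooth muscle marker counts and the highest total count of its group, and why its omission changed the calls was not tested.

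The strains were then compared directly, with the same libraries as above, so these contrasts are not independent of the AngII results. Reads of both strains were aligned to GRCm38, the C57BL/6J genome, and whether this lowered counts of single genes in 129S6/SvEvTac was not tested. In controls, 2 of the 35 genes were higher in C57BL/6J (5.35% of all tested genes were) and 1 was lower (5.06% were). Dnajc3 was 1.61-fold higher (adjusted p = 0.000113) and Pdia6 1.46-fold higher (adjusted p = 0.0157), while Asns was lower by 2.92 ± 0.31 on the log2 scale (15.2 ± 2.36 CPM in 129S6/SvEvTac against 2.01 ± 0.067, SD, n = 4; adjusted p = 1.08e-05). The Pdia6 call was lost without C57BL/6J control replicate 1 or 129S6/SvEvTac control replicate 3 or 4, and without C57BL/6J AngII replicate 2 Manf and Creld2 were called as well. Calr averaged 764 CPM in both control groups, and the median log2 difference over the 35 genes was 0.12.

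With AngII, 17 of the 35 genes were higher in C57BL/6J (16.8% of all tested genes were) and 2 were lower (14.6% were). All 5 isomerases, all 4 translocation subunits and 7 of 11 chaperones were higher, as was Eif2ak3. Pdia6 was 1.87-fold higher (adjusted p = 0.000149), Pdia4 1.67-fold (adjusted p = 0.000461) and Dnajc3 1.62-fold (adjusted p = 5.4e-05). Lower in C57BL/6J were Trib3, at 2.53 ± 0.40 against 4.02 ± 1.27 CPM (adjusted p = 0.0322), and Atf6, at 103 ± 10.1 against 121 ± 5.18 CPM (SD, n = 4; adjusted p = 0.0298). Asns, 15.9 ± 8.19 against 24.2 ± 3.44 CPM, was not called (adjusted p = 0.121, or 0.0447 without C57BL/6J AngII replicate 1). Of the 19 calls, 11 were made in all 16 omissions, the 4 named isomerase and co-chaperone genes Pdia3, Pdia4, Pdia6 and Dnajc3 among them. Without 129S6/SvEvTac AngII replicate 5, the most deeply sequenced library, 11 genes were called, and without replicate 2 of that group 12. Fitting only the 2 AngII groups called 9 of the 35 genes. Of all 15918 genes tested in that fit, 2089 were higher and 1577 lower in C57BL/6J. The call of Atf6 was lost without C57BL/6J AngII replicate 1 or 5 or 129S6/SvEvTac AngII replicate 2, 4 or 5, and that of Trib3 without C57BL/6J AngII replicate 1, 3 or 5 or 129S6/SvEvTac AngII replicate 2 or 5.

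The promoter elements were set beside the counts as a description. Of the 9 genes with an ERSE, 5 rose in C57BL/6J and 5 in 129S6/SvEvTac, with median log2 fold changes of 0.62 and 0.47 (21.8% and 7.71% of all tested genes rose). Among 28 other genes whose promoter holds an ERSE, 9 matched a tested symbol, of which 2 rose and 1 fell in C57BL/6J and 0 in 129S6/SvEvTac. Ero1b, one of the 28, is named Ero1lb in the count table. It was not called for AngII in either strain and was higher in C57BL/6J controls, as given under Other observations. Of the 21 genes with a promoter but no ERSE, 15 rose and 1 fell in C57BL/6J and 7 rose in 129S6/SvEvTac, with medians of 0.67 and 0.34. In controls, 2 of the 9 genes with an ERSE were higher in C57BL/6J, Dnajc3 and Pdia6, and 0 of the 21 without (5.35% of all tested genes were). The Pdia6 call was lost in 3 omissions, and a link between the element and the strain difference was not tested. The 4 genes with a CARE included the largest rise (Asns), the 1 fall (Trib3), a rise in both strains (Chac1) and no call (Herpud1).

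The other genes of these pathways were read from lists that do not contain the 35. Of 33 further tested targets of the PERK-ATF4 branch, 22 rose and 3 fell in C57BL/6J, and 9 rose and 1 fell in 129S6/SvEvTac, with median log2 fold changes of 0.48 and 0.29. Over all tested genes, 21.8% rose and 17.1% fell in C57BL/6J and 7.71% rose and 4.47% fell in 129S6/SvEvTac, and these shares stand beside each list that follows. Phgdh, the first enzyme of serine synthesis, rose 1.99-fold in C57BL/6J (adjusted p = 8.81e-06) and was at 0.20 ± 0.11 in 129S6/SvEvTac (adjusted p = 0.271), a difference that was called (0.79 ± 0.15, adjusted p = 0.00675). Psph, the last enzyme of serine synthesis, was lower in C57BL/6J controls by 0.80 ± 0.13 (4.93 against 8.58 CPM, adjusted p = 0.000674), and its AngII effect differed by 0.88 ± 0.18 (adjusted p = 0.00929). Aldh18a1, which begins proline synthesis from glutamate, rose 2.21-fold and 1.74-fold in the 2 strains (adjusted p = 6.4e-05 and 0.00502). Stc2, a secreted glycoprotein, fell in C57BL/6J by 1.23 ± 0.32 (adjusted p = 0.00632), was at 0.99 ± 0.31 in 129S6/SvEvTac (adjusted p = 0.051), and differed between them by -2.21 ± 0.44 (adjusted p = 0.00782).

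Of 29 further folding and oxidation genes, 18 rose and 2 fell in C57BL/6J and 10 rose in 129S6/SvEvTac, with medians of 0.35 and 0.22. Pdia5 rose 2.49-fold and 1.8-fold (adjusted p = 2.63e-05 and 0.004), and Fkbp10, a prolyl isomerase that serves collagen, 2.34-fold in C57BL/6J (adjusted p = 4.89e-05). Of 19 further degradation genes, 10 and 4 rose, and of 31 further genes of translocation, signal peptidase and N-glycosylation, 13 and 4 rose, with no falls; the medians were 0.23 and 0.19 for the first list and 0.32 and 0.12 for the second. Tram1, a translocating chain protein, rose 1.85-fold and 1.32-fold (adjusted p = 1.27e-06 and 0.00302), and the difference was called (0.49 ± 0.11, adjusted p = 0.0114). Of 31 genes of ER to Golgi transport, 19 rose and 1 fell in C57BL/6J and 13 rose in 129S6/SvEvTac, with medians of 0.31 and 0.28. Lman1, the cargo receptor ERGIC-53, rose 2.39-fold and 1.59-fold (adjusted p = 1.58e-06 and 0.00109).

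Chaperones outside the ER were read on a list of their own. Of 23 cytosolic and mitochondrial chaperone genes, 2 rose and 2 fell in C57BL/6J and 1 rose in 129S6/SvEvTac, with medians of 0.23 and 0.11; the shares of all tested genes that rose were 21.8% and 7.71%. Hspa4l, a cytosolic Hsp110 relative, rose by 1.01 ± 0.26 and 0.98 ± 0.26 (adjusted p = 0.00617 and 0.0229). Hsf1, the regulator of the cytosolic heat shock response, fell by 0.71 ± 0.10 in C57BL/6J (adjusted p = 5.55e-05) and was at -0.05 ± 0.10 in 129S6/SvEvTac (adjusted p = 0.821).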

How the data were processed

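The table used holds expected counts per gene, whole numbers, deposited by the authors for 16 libraries. Per the labels' protocols, reads were aligned to GRCm38 with HISAT2 and transcripts quantified with StringTie against Gencode. The submitters' processing notes name R 3.6.2 and DESeq2 1.26.0 without saying for which step. How the counts were derived, their strandedness and the Gencode release are not stated, and the 11 of the 35 genes whose exons overlap another gene (Ddit3, Dnajb9, Eif2ak3, Hsp90b1, Manf, Pdia3, Pdia4, Pdia6, Ppib, Sec61a1 and Syvn1) therefore have uncertain counts. GENCODE M21 names matched 52489 of 52636 IDs.

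In R 4.3.3 with edgeR 4.0.16, filterByExpr (minimum count 10) left 17125 genes. TMM factors and a robust quasi-likelihood model with 1 mean per group over all 16 libraries gave p-values, adjusted by Benjamini-Hochberg over all tested genes. CPM use the TMM-adjusted total, and scores are mean log2 CPM with a prior count of 2. The 35 genes and all lists were chosen with earlier results of these data known. All 35 could be named, and up to 3 called genes of each other list by smallest p in a comparison. Col1a1 is named as a reference, and the plasma cell markers were named after their values were seen. No 2 replicates agreed within sampling noise (lowest chi-square per degree of freedom 37.58). Pairs within a group gave 37.58 to 58.37 in controls and 62.64 to 348.24 with AngII, while the model shares the spread of a gene over the 4 groups.

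A simulation changed 200 genes in C57BL/6J AngII, and 196 of them were among the 16739 genes tested. The AngII test in C57BL/6J found 99 of them beside 4 unchanged genes. These were 19.4%, 49.3% and 80.3% of the genes changed by folds of 1.5, 2 and 4, untested ones included. The interaction test had less power and found 62 beside 3 unchanged genes, or 2.99%, 20.9% and 69.7% at the same folds. An interaction that was not called therefore does not show that the strains' effects were equal. The alternatives tried were DESeq2 1.42.0, voom with sample weights in limma 3.58.1, scaling by RLE or by library size, no filter or one of 1 CPM in 4 libraries, fitting only the 2 groups of a comparison, a replicate block, a covariate for cell cycle or adipocyte markers, and leaving out each library in turn. Leaving out 2 libraries together was added after seeing the data.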

Additional observations from a re-analysis of the deposited data

Results flagged for a closer look

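In 140 groups of 4 libraries, 1 library stood far from the other 3 in 11, where chance marks about 1 group in 20. In C57BL/6J controls these were Canx in replicate 1 (376 CPM), Dnajc3 in replicate 1 (205 CPM), Sdf2l1 in replicate 2 (6.56 CPM), Sel1l in replicate 5 (171 CPM) and Asns in replicate 3 (2.1 CPM). In C57BL/6J AngII they were Manf and Eif2ak3, both in replicate 2 (198 and 56.2 CPM). The 129S6/SvEvTac controls had Xbp1 (58.5 CPM) and Trib3 (4.48 CPM), both in replicate 4. In 129S6/SvEvTac AngII, Pdia6 stood apart in replicate 5 (134 CPM) and Chac1 in replicate 4 (6.48 CPM). The spread within these groups is small for Asns, whose 4 control values differ by little in absolute terms.

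The interaction test of edgeR called a difference of the AngII effects between the strains for Asns (2.31), Ssr3 (0.53), Pdia3 (0.44) and Trib3 (-1.12, all log2 differences). The calls of Pdia3 and Trib3 were lost in 13 and 9 of the 16 omissions of 1 library. Of all tested genes, 5.34% were called larger in C57BL/6J and 4.62% smaller.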

How the results depend on the processing

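The count of the 35 genes called for AngII in C57BL/6J was 24 and ran from 22 to 25 over the omissions of 1 library. It stayed between 21 and 25 under the other settings, apart from the cell cycle score as a covariate. For AngII in 129S6/SvEvTac it was 14 (7 to 17 over omissions; 7 with library size only), for the difference of effects 4 (2 to 10; 2 without a filter, 7 with DESeq2, 8 with voom, 2 with the adipocyte score), for the strains in controls 3 (2 to 5; 5 with only the groups compared) and for the strains with AngII 19 (11 to 20; 9 with only the groups compared). Without C57BL/6J AngII replicate 1 and 129S6/SvEvTac AngII replicate 5, chosen after seeing the data, the last count was 11 and that of the difference 2. Over all tested genes, AngII in 129S6/SvEvTac gave 2087 calls (1402 to 2634; 3324 with voom) and the difference 1706 (1039 to 2990; 2642 with DESeq2, 2670 with voom, 992 with the adipocyte score, 1049 without the pair of libraries). The strains in controls gave 1783 (1354 to 2118; 3209 with voom, 2772 with only the groups compared). Scaling by library size alone gave a median over all genes of -0.0797 in C57BL/6J and -0.157 in 129S6/SvEvTac, and the share of higher calls went from 56.1 to 45.4%, from 63.3 to 25.2% and, for the difference of effects, from 53.6 to 65.2%. With the replicate block, the count for the difference of effects was 2 of the 35 genes. Correlations of same-numbered libraries ran from -0.06 to 0.146. Differently numbered libraries were not set beside them, so whether the numbers mark a pairing is not known. With the cell cycle score, whose values did not overlap between AngII and control libraries, 0 of 35 genes were called for AngII in either strain, for the difference or between strains with AngII, and 0, 25, 125 and 830 of all genes. Under it 21 log2 values changed sign, none of them called: for AngII in C57BL/6J Hsp90b1 -0.125, Hyou1 -0.326, Calr -0.0756, Dnajb11 -0.418, Sdf2l1 -0.0265, Manf -0.0367, Pdia6 -0.123, P4hb -0.183, Ppib -0.118, Sec61b -0.141, Sec61a1 -0.00186 and Ssr1 -0.0787; for AngII in 129S6/SvEvTac Hsp90b1 -0.0912, Dnajb11 -0.0967, Pdia3 -0.00322, Pdia4 -0.115 and Pdia6 -0.0432; between the strains with AngII Hsp90b1 -0.0484, Dnajb11 -0.207, Creld2 -0.195 and P4hb -0.00104. The causes of these changes were not tested. Counts were low for Derl3, Chac1 and Trib3, and for Asns in C57BL/6J controls. How far depth limits their precision was not tested.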

Other observations

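Single genes of the other secretory pathway lists also differed between the strains. Of the 143 tested genes of these lists, 9 were higher and 2 lower in C57BL/6J controls, where 5.35% and 5.06% of all tested genes were. With AngII, 50 were higher and 8 lower in C57BL/6J, where 16.8% and 14.6% of all tested genes were. Ero1lb, an ER oxidase that passes electrons from disulphide isomerases to oxygen, was 2.34-fold higher in the controls of C57BL/6J, at a mean of 11.01 against 4.7 CPM (log2 1.23 ± 0.15, adjusted p = 6.15e-05), and with AngII 12.3 against 4.48 CPM (adjusted p = 6.81e-06). Its promoter, under the name Ero1b, holds an ERSE, and a link to the strain difference was not tested. Stt3b, a catalytic subunit of oligosaccharyltransferase, was 1.67-fold and 1.76-fold higher in C57BL/6J in the same comparisons (adjusted p = 8.77e-06 and 2.12e-06). Atf5, a transcription factor related to ATF4, was lower in C57BL/6J by 0.58 ± 0.11 in controls (adjusted p = 0.0017) and by 1.13 ± 0.11 with AngII (adjusted p = 2.14e-06).

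Ube2j1, the ubiquitin-conjugating enzyme of ER-associated degradation, rose in both strains, 1.41-fold and 1.44-fold (adjusted p = 0.000396 and 0.00133), with a difference of -0.03 ± 0.12 (adjusted p = 0.919). Nupr1, a stress-induced chromatin protein, rose 1.82-fold in C57BL/6J and 2.11-fold in 129S6/SvEvTac (adjusted p = 0.00171 and 0.00165), and Mthfd2, a mitochondrial folate enzyme, 1.93-fold and 2.54-fold (adjusted p = 0.0138 and 0.0063). The genes in both paragraphs were taken from the fixed lists by their p-values.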
